A study of Homo sapiens with 14 samples.

Results

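The genes of DNA replication and nucleotide synthesis were followed in U2OS, a human osteosarcoma cell line, after activation of the transcription factor E2F1 and knockdown of the forkhead factors FOXO1 and FOXO3. The set held 59 genes, fixed by name: 22 for the licensing and firing of replication origins, 16 for polymerases and the proteins that work beside them, 7 for loading of the sliding clamp, 7 for nucleotide supply and 7 for fork protection and chromatin assembly. Each was represented by the array probe set that named no other gene and had the highest mean log2 signal. All 59 were on the array, among 11963 genes, and all passed the filter on low signal, as did 7720 genes in total. All cells stably expressed ER-E2F1, E2F1 fused to an estrogen receptor domain that 4-hydroxytamoxifen (OHT) switches on. They had been infected with a lentivirus for a scrambled hairpin or for shFOXO33 or shFOXO707, which each target both FOXO1 and FOXO3, moved to serum-free medium 24 h later, and after 24 h without serum were given 20 nM OHT or none for 6 h. Scrambled cells gave 4 arrays without and 4 with OHT, and each hairpin gave 1 array without and 2 with OHT. No sample had OHT without ER-E2F1, so an effect of OHT and one of E2F1 cannot be told apart. Nothing in the labels says that replicates came from separate cultures. The p-values therefore reflect the spread between arrays, which may be technical.

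Replication starts at origins that the origin recognition complex, ORC, marks. CDC6 and CDT1 load the ring-shaped MCM2 to MCM7 helicase there during G1, geminin (GMNN) binds CDT1 and blocks reloading, and the CDC7 kinase, CDC45 and the GINS complex turn the loaded ring into a moving helicase. Polymerase alpha with primase starts each strand, polymerase epsilon and polymerase delta extend the leading and the lagging strand, and the RFC complex loads PCNA, the clamp that holds polymerases on DNA. Many of these genes are textbook E2F targets, released from repression when the retinoblastoma protein is phosphorylated late in G1. FOXO factors act in quiescent cells and are known for restraining the cell cycle.

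Array medians were 136.55 to 142.8 on the 6 arrays without OHT and 114.2 to 119.4 on the 8 with OHT, although every array had the same trimmed mean of 500, and this bears on each direction below. In scrambled cells FOXO1 had mean signals of 103 without and 501 with OHT, and in knockdown cells 44.2 and 199. For FOXO3 the means were 449 and 1793 in scrambled cells and 206 and 558 in knockdown cells. With OHT both were lower after knockdown, FOXO1 by a log2 difference of -1.29 ± 0.14 (SE) with an adjusted p of 4.61e-05 and FOXO3 by -1.81 ± 0.30 with an adjusted p of 0.000963. Without OHT FOXO1 was lower (-0.99 ± 0.17, adjusted p = 0.00386) and the FOXO3 difference of -1.13 ± 0.37 was not called (adjusted p = 0.0790). Of the markers of bone-forming cells, the lineage of osteosarcoma, 4 of 8 were above the filter, against 3 of 6 epithelial, 3 of 6 neural and 0 of 6 blood cell markers. The summed signal of the bone markers was 19440 to 19864 in scrambled cells without OHT, 16108 to 16940 with OHT, and 8406 to 18828 over the 6 knockdown arrays. These markers did not move together: against scrambled cells with OHT, SPARC differed by -3.43 ± 0.05 with shFOXO33 (adjusted p = 5.66e-16), ALPL by 1.002 ± 0.18 (adjusted p = 0.000263) and COL1A1 by -0.05 ± 0.04 (not called). The summed signal of the epithelial markers ranged from 3478 to 7341 and that of the neural markers from 8608 to 12310 over all 14 arrays. The part of these shifts in the results was not tested.

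Promoter sequence was compared in windows of 250 bases before to 50 bases after the transcript start, from RefSeq on GRCh38.p14, which held 53 of the 59 genes and no entry for MCM4, MCM5, POLD3, RPA2, RPA3 or DSCC1. An E2F motif was counted on either strand as the letters TTCCCGC, as the variant form TTGGCGC, as the further variant TTCGCGC, or as the remaining variant TTGCCGC. Overlapping matches were counted once. At least 1 match lay in 33 of 53 windows (62.3%), compared with 1411 of 6440 windows of the genes tested (21.9%) and 3564 of all 27305 windows (13.1%). By response to OHT in scrambled cells, a match was found in 10 of 18 members that rose (55.6%), 10 of 18 that fell (55.6%) and 13 of 17 that were not called (76.5%). The forkhead motif GTAAACA, on either strand, was in 0 of 53 windows and in 2.16% of those of the genes tested. CCAAT, on either strand, was in 30 of 53 windows (56.6%) and in 37.7% of those of the genes tested. A match describes letters in this window and is not a measured binding site. The windows of 6 genes are shown, 3 that rose with OHT and 3 that fell, because the genes of each direction differ in their number of matches. Among the 6 shown, the number was 0 to 3 for those that rose and 0 to 2 for those that fell. LIG1, which fell and is not shown, had 3 matches. All read 5′ to 3′ on the gene's own strand, and the capitals mark E2F motif matches. DCK lies on the plus strand at chr4:70993399-70993698, POLE on the minus strand at chr12:132687293-132687592 and SLBP on the minus strand at chr4:1712270-1712569. ORC1 lies on the minus strand at chr1:52404374-52404673, CDC7 on the plus strand at chr1:91500601-91500900 and ORC5 on the minus strand at chr7:104207964-104208263.
DCK: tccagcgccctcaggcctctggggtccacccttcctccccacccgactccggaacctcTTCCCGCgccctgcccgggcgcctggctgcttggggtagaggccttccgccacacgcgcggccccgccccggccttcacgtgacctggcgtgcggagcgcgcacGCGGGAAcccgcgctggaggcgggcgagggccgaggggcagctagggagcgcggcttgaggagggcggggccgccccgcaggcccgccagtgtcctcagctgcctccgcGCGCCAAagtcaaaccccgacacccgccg
POLE: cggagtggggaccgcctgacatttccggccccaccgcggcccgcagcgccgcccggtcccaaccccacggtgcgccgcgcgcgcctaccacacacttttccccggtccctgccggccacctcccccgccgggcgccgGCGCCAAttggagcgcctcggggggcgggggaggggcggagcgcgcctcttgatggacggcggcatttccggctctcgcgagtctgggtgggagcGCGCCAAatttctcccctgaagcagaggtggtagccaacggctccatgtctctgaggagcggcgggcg
SLBP: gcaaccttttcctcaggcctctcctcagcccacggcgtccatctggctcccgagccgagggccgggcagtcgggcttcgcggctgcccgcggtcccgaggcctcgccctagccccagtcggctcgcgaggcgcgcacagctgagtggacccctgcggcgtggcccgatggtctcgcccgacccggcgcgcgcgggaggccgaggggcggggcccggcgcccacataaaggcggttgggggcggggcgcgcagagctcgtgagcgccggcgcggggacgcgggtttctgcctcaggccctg
ORC1: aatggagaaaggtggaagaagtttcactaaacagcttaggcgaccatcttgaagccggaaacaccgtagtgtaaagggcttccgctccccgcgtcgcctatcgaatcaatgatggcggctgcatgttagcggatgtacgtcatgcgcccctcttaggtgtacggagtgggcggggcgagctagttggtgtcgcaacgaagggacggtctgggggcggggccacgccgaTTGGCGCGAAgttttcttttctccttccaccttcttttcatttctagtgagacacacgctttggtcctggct
CDC7: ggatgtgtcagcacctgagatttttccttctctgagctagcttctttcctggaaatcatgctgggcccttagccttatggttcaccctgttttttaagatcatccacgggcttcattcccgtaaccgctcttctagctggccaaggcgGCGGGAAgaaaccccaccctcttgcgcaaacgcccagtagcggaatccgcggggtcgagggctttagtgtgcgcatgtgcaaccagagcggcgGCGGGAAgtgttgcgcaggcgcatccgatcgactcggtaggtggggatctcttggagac
ORC5: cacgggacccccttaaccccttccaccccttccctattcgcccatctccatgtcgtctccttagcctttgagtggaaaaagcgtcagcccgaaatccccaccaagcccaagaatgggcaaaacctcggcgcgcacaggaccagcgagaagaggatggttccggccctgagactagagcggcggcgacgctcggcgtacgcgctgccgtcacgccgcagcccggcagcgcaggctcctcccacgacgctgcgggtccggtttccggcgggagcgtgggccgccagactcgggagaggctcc
DCK, the largest increase, had 3 matches, POLE had 2 and SLBP, the second largest increase, had 0. Among those that fell, ORC1 had 1 match, CDC7 had 2 and ORC5 had 0.

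With OHT in scrambled cells, 20 of the 59 genes rose, 22 fell and 17 were not called. Calls here mean an adjusted p (limma, Benjamini-Hochberg over all 7720 genes) under 0.05 for a difference of log2(signal + 16). Over all genes tested 24.0% rose and 46.4% fell, and the median log2 difference was 0.0005 over the members and -0.23 over all genes. At least 2-fold changes were found for 4 members upward, DCK, SLBP, DSCC1 and POLE, and for 4 downward, ORC1, ORC2, ORC4 and ORC5. The 4 arrays with OHT lay entirely above the 4 without for 23 members and entirely below for 23, where 25.5% and 49.9% of all genes tested did so. These members include 19 of the 20 that rose, all but DUT, and all 22 that fell, together with ORC6, CDC6, POLE2, RFC3 and TYMS, which were not called. Nucleotide supply had 4 genes up and 1 down, and fork protection and chromatin likewise 4 up and 1 down. Licensing had 6 up and 10 down, polymerases 4 up and 8 down, and clamp loading 2 up and 2 down. These counts come from the fit with pooled hairpins, so part of the spread between hairpins entered the error. When the 6 groups of the sample titles were fitted separately, more members were called each way in this comparison of scrambled arrays. The share of all genes called in that fit is not given here, so the increase is not read as particular to the members. A member that was not called was thus not shown to be unchanged.

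**Figure D1:**
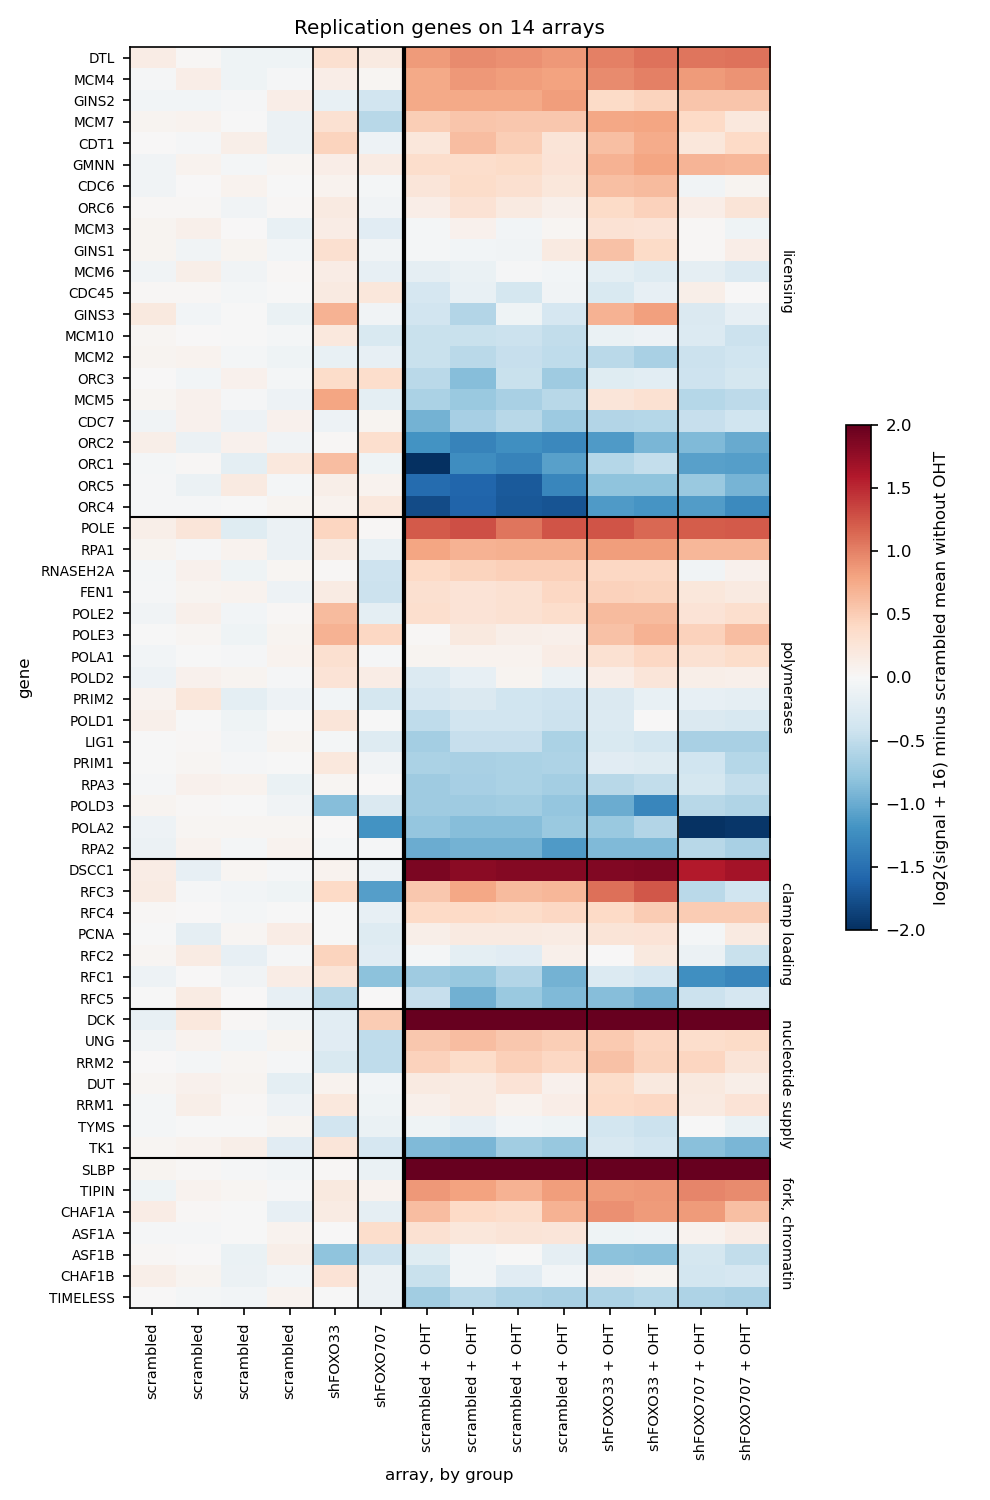
Each row is 1 of the 59 genes and each column 1 of the 14 arrays; colour gives log2(signal + 16) minus the mean of the 4 scrambled arrays without OHT, with values beyond 2 shown at 2. The thick vertical line separates the 6 arrays without OHT from the 8 with OHT: DCK, SLBP and DSCC1 are the darkest red and ORC4, ORC5 and ORC1 the darkest blue to its right.

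The split between rising and falling members depended on how arrays were scaled. Centring each array on its median moved the median of all genes from -0.23 to -0.002, and 27 members then rose and 15 fell, so that the share of rises among calls went from 47.6% to 64.3%. Over all genes 32.3% rose and 30.6% fell on centring, so the shift was shared by the array as a whole. By role group, centring gave 8 up and 7 down in licensing, 7 and 5 in polymerases, and 3 and 1 in clamp loading. Nucleotide supply had 5 up and 1 down on centring, and fork protection and chromatin 4 and 1. ORC6, CDC6, POLA1, POLE2, POLE3, PCNA and RRM1 were then called higher. MCM5, MCM10, POLA2, PRIM2, POLD1 and RFC1 were no longer called lower, and CDC45 went from -0.22 to 0.002. Quantile normalization gave 20 up and 21 down, where 27.3% of all genes rose and 40.3% fell. The other called members kept their direction and call under centring.

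**Figure D2:**
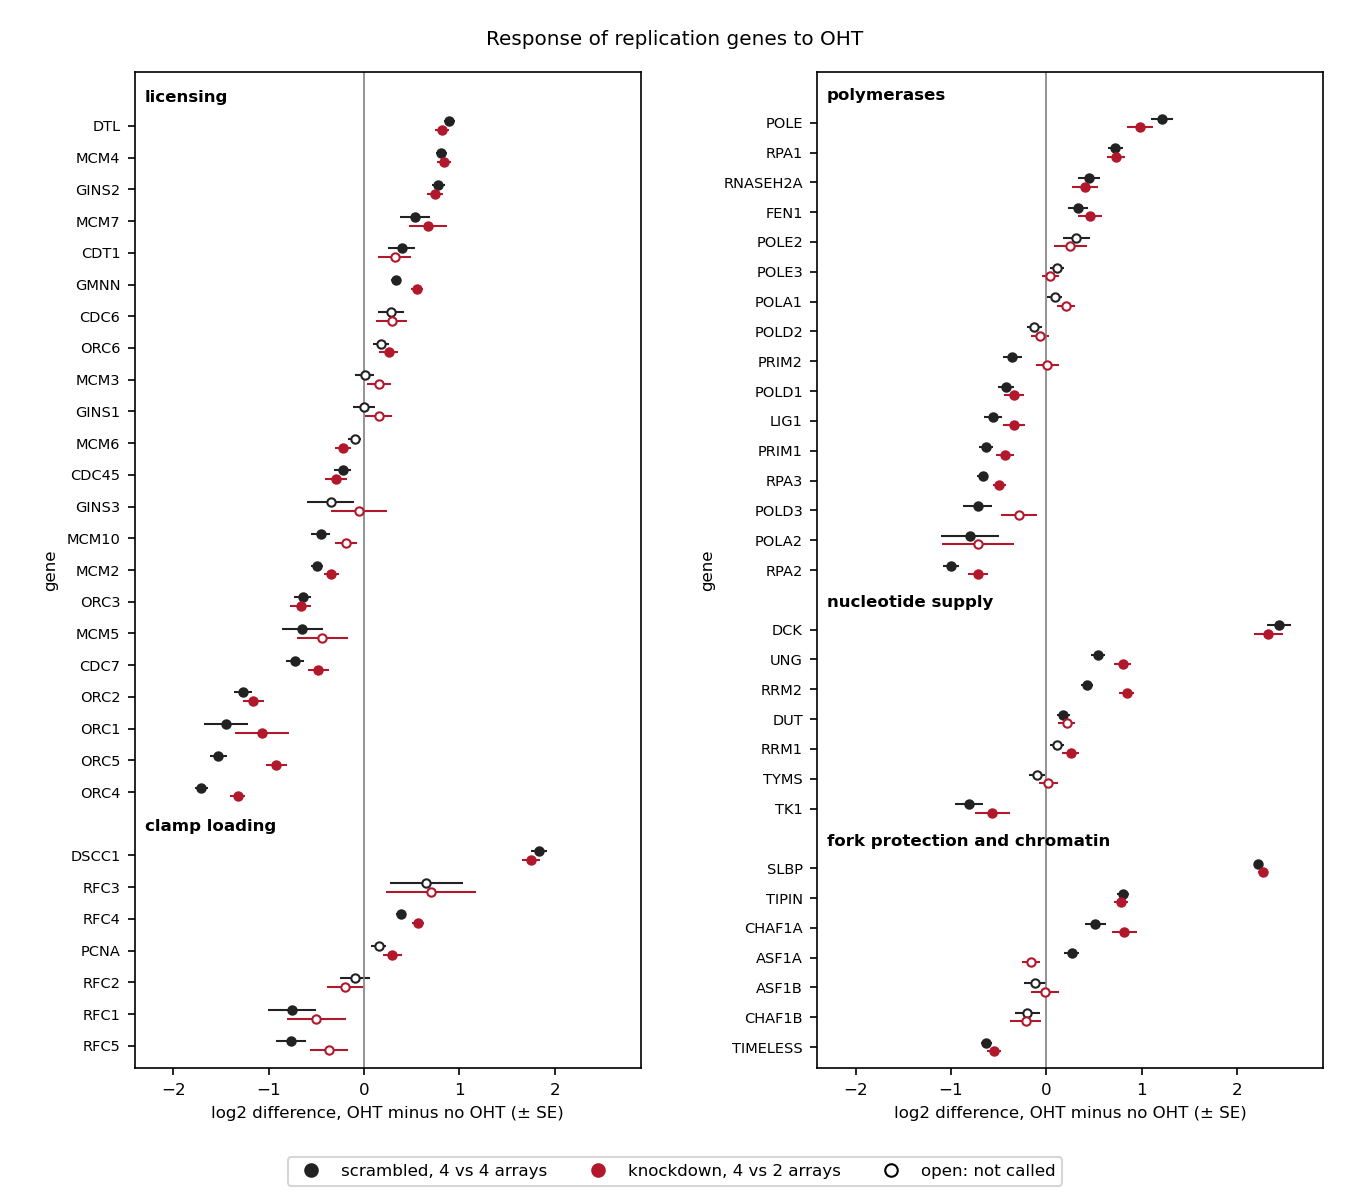
Points are log2 differences, OHT minus no OHT, with bars of 1 SE, for scrambled cells (black, 4 against 4 arrays) and knockdown cells (red, 4 against 2 arrays); filled points were called and open points were not. Genes are sorted within role groups by the scrambled value, from 2.44 for DCK to -1.70 for ORC4.

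The origin recognition complex stood at the low end of the set: 5 of its 6 subunits fell with OHT under each scaling, and ORC6 was not called, or was called higher on centring. ORC4 had signals of 1393, 1383, 1409 and 1458 without OHT and 395, 454, 423 and 417 with OHT, 0.307 times the starting level on this scale (log2 difference -1.70 ± 0.06, adjusted p = 5.40e-11). ORC5 went from 718, 669.98, 819.8 and 703 to 239, 232, 216 and 283, a log2 difference of -1.53 ± 0.09 with an adjusted p of 3.75e-09. ORC1, the largest subunit and the one whose protein varies through the cell cycle, went from 193, 202, 171 and 231 to 33, 75, 68.4 and 84.5, a log2 difference of -1.45 ± 0.23 with an adjusted p of 7.57e-05. No array with OHT reached the lowest array without it for any of these 3 genes, and the ORC1 signals with OHT lay close to or under the filter level of 79.1. ORC2 went from 428, 364, 418 and 374 to 163, 147, 159 and 151 (log2 difference -1.26 ± 0.09, adjusted p = 3.70e-08). ORC3 fell less, from 572, 548, 602 and 553 to 385, 307, 411 and 339 (log2 difference -0.64 ± 0.09, adjusted p = 1.95e-05). ORC6, the subunit least tightly held in the complex, had 1144, 1147, 1065 and 1142 without and 1231, 1384, 1275 and 1209 with OHT, a difference of 0.18 ± 0.08 that was not called (adjusted p = 0.0700). The second probe sets of ORC4 and ORC5 also fell, by log2 differences of -1.24 and -1.48.

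**Figure D3:**
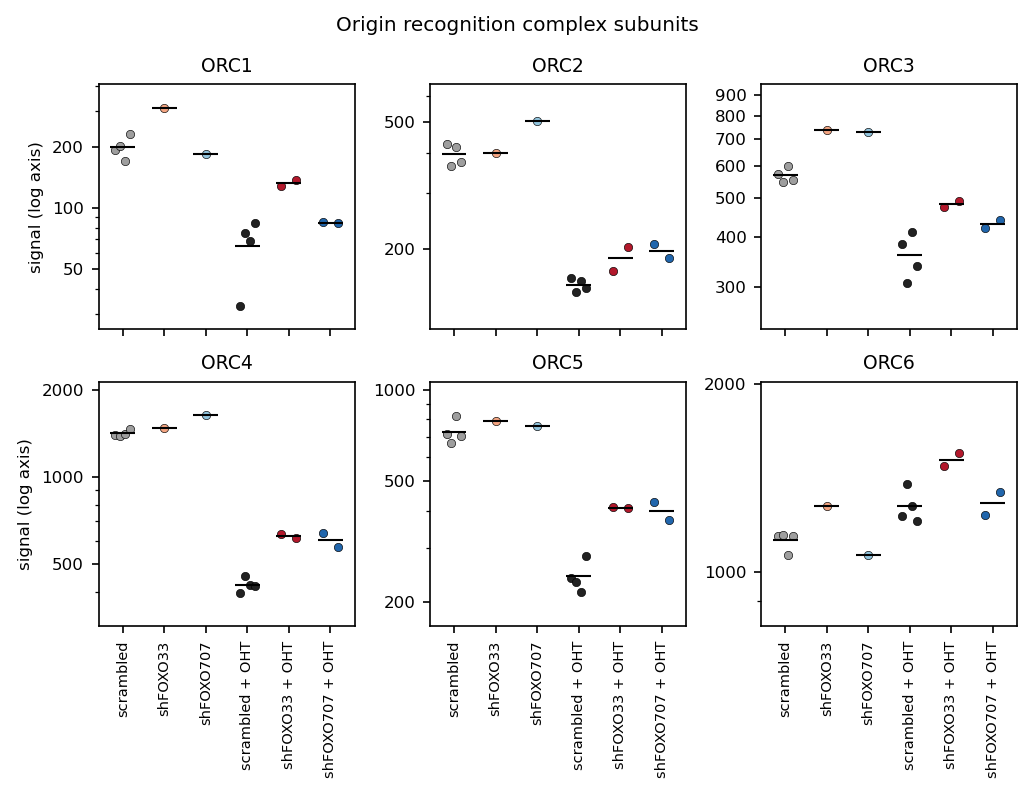
Signals of ORC1 to ORC6 on each array, on a log axis, with a bar at each group's mean, for scrambled, shFOXO33 and shFOXO707 cells without and with OHT. ORC1 to ORC5 are lower on every array with OHT than on every array without it, and the knockdown arrays with OHT of ORC4 and ORC5 lie above the 4 scrambled arrays with OHT.

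The genes that load the helicase and restrain loading moved the other way or were not called. CDT1 had 199, 195, 215 and 182 without and 232, 312, 284 and 239.8 with OHT and rose by a log2 difference of 0.40 ± 0.14 (adjusted p = 0.0218). GMNN rose from 1900.3, 2099, 1949.7 and 2051 to 2557, 2549.7, 2619 and 2409.6 (0.34 ± 0.05, adjusted p = 4.50e-05). DTL, part of the ubiquitin ligase that degrades CDT1 in S phase, had the largest increase of the licensing genes: 1504, 1378, 1283 and 1286 became 2461, 2623, 2587 and 2507 (0.90 ± 0.06, adjusted p = 1.64e-08). Its arrays did not overlap between the conditions. For CDC6 the difference of 0.29 ± 0.14 was not called (adjusted p = 0.0721), although all 4 arrays with OHT, at 1373, 1499.9, 1445 and 1359.8, lay above the 1098, 1168, 1219 and 1153 of the others. The pooled hairpin arrays with OHT, which ran from 1101 to 1813 for CDC6, enter this SE.

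The 6 subunits of the MCM ring did not move together. MCM4 rose from 1324, 1481, 1280.05 and 1333 to 2289.8, 2477, 2414 and 2373 (0.81 ± 0.06, adjusted p = 3.70e-08), and all 4 of its probe sets above the filter rose. MCM7 rose from 1953, 1977, 1868 and 1738 to 2646, 2783, 2749.5 and 2753 (0.53 ± 0.16, adjusted p = 0.00862). These rises stand against falls of MCM2, from 1831, 1843, 1722 and 1656 to 1287, 1203, 1272 and 1237 (-0.49 ± 0.06, adjusted p = 1.24e-05), and of MCM5. MCM5 went from 1377, 1427, 1329 and 1254 to 858, 799.7, 854 and 908 (-0.65 ± 0.22, adjusted p = 0.0166), and its call was lost on centring (adjusted p = 0.109). MCM3 (0.01 ± 0.10) and MCM6 (-0.10 ± 0.07) were not called and their arrays overlapped. MCM10, which helps the helicase start to unwind, fell with a log2 difference of -0.45 ± 0.10 (adjusted p = 0.000916), with 1178 to 1226 on the arrays with OHT and 1609 to 1699 on those without.

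Among the firing factors, the GINS complex held rising, uncalled and falling subunits. GINS2 rose from 1625, 1625, 1643 and 1833 to 2861, 2835, 2859 and 3025 (0.78 ± 0.07, adjusted p = 2.03e-07). The other GINS subunits among the 59 genes, GINS1 (0.00 ± 0.12) and GINS3 (-0.35 ± 0.24), were not called and their arrays overlapped. GINS4, the remaining subunit and one of the other pathway genes, fell from a mean of 468 to 261 (-0.81 ± 0.16, adjusted p = 0.000422). CDC7 fell from 588, 653, 571 and 656 to 312, 382, 415 and 367 (-0.72 ± 0.09, adjusted p = 8.26e-06). CDC45 fell with a log2 difference of -0.22 ± 0.09 (adjusted p = 0.0463), a call that centring removed as given above.

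The polymerase genes split by enzyme and by subunit. POLE, the catalytic subunit of polymerase epsilon, rose from 401, 436, 306 and 339, a mean of 371 ± 58.5 (SD, n = 4), to 885, 918, 790.5 and 897, a mean of 873 ± 56.4 (SD, n = 4). That is a log2 difference of 1.21 ± 0.11, or 2.32-fold, with an adjusted p of 3.63e-07. The accessory subunits POLE2 (0.32 ± 0.14, adjusted p = 0.0603) and POLE3 (0.11 ± 0.07, adjusted p = 0.186) were not called. For POLE2 the pooled hairpin arrays, at 1853 and 1036 without OHT, enter the SE. Of polymerase delta, POLD1, the catalytic subunit, fell with a difference of -0.43 ± 0.09 (adjusted p = 0.000564). POLD3, an accessory subunit, fell from 921, 899, 881 and 845 to 534, 537, 541 and 512 (-0.72 ± 0.15, adjusted p = 0.000797), and POLD2 (-0.13 ± 0.08) was not called. In the polymerase alpha and primase complex, POLA1, the catalytic subunit, was not called (0.09 ± 0.08, adjusted p = 0.320). Its partner POLA2 went from 475, 528, 526 and 526 to 294, 279, 279 and 299.8 (-0.80 ± 0.31, adjusted p = 0.0311). The pooled hairpin arrays, which differed for this gene, enter this SE. The POLA2 call was lost on centring (adjusted p = 0.117), on quantile normalization (0.0915), and without any 1 of 7 scrambled arrays (0.0513 to 0.0605), all but the replicate 1 array without OHT. The primase subunits PRIM1 (-0.64 ± 0.08, adjusted p = 4.88e-06) and PRIM2 (-0.36 ± 0.10, adjusted p = 0.00490) fell, PRIM2 only without centring.

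RPA, the trimer that coats single-stranded DNA at the fork, showed opposite changes of its subunits. RPA1, the large subunit, rose from 1777, 1681, 1793 and 1565 to 2942, 2769, 2789.6 and 2787 (0.72 ± 0.08, adjusted p = 1.42e-06). RPA2 fell from 1173, 1332, 1236 and 1339 to 633, 654, 652 and 571, 0.5 times the starting level (-0.999 ± 0.09, adjusted p = 1.81e-07), and RPA3 fell from 4704, 5122, 5029 and 4404 to 2932, 3042, 3091 and 3007 (-0.67 ± 0.06, adjusted p = 1.72e-07). These directions held under both other scalings, and a second RPA1 probe set rose by 0.70. The enzymes that finish lagging strand fragments also differed. FEN1, the flap nuclease, rose by 0.33 ± 0.10 (adjusted p = 0.0124), and RNASEH2A, the catalytic subunit of an RNA-removing nuclease, went from 824, 898, 794 and 867 to 1117, 1152, 1178 and 1178 (0.45 ± 0.11, adjusted p = 0.00323). LIG1, the ligase that seals the fragments, fell with a log2 difference of -0.56 ± 0.09 (adjusted p = 0.000105), with 1135 to 1234 without OHT and 737 to 859 with it.

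Clamp loading held the third largest increase of the set. DSCC1, a subunit of the alternative loader that also serves sister chromatid cohesion, rose from 1185, 943, 1090.2 and 1051 to 3962, 3739.8, 3822 and 3842, 3.57-fold (1.84 ± 0.08, adjusted p = 2.40e-10). RFC4 rose from 2151, 2134, 2063 and 2115 to 2784, 2781, 2724 and 2820.2 (0.39 ± 0.05, adjusted p = 8.40e-06). Other subunits of the same loader went down: RFC5 from 1037, 1172, 1044 and 931 to 754, 526, 613 and 557 (-0.76 ± 0.16, adjusted p = 0.000722). Of 3 RFC5 probe sets above the filter, 2 fell and 1 was not called. RFC1, the large subunit, went from 1040.03, 1122, 1057 and 1238 to 673, 653, 733 and 568 (-0.75 ± 0.25, adjusted p = 0.0166), and lost its call on centring (adjusted p = 0.0861) and when its probe sets were averaged (-0.38, adjusted p = 0.115). RFC3 had 1225, 1080.2, 1049 and 1029.7 without and 1592, 1871, 1711 and 1751 with OHT, groups that do not overlap, but the difference of 0.65 ± 0.38, whose SE includes the spread between hairpins, was not called (adjusted p = 0.143). PCNA (0.16 ± 0.08, adjusted p = 0.102) and RFC2 (-0.09 ± 0.15, adjusted p = 0.612) were not called.

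Nucleotide supply held the largest increase. DCK, the kinase that salvages deoxycytidine and other deoxynucleosides, had 980.03, 1264, 1112 and 1036 without OHT, a mean of 1098 ± 123 (SD, n = 4), and 5889, 6064, 6098 and 5915 with OHT, a mean of 5992 ± 105 (SD, n = 4). The rise was 5.42-fold (2.44 ± 0.12, adjusted p = 8.84e-10). TK1, the thymidine salvage kinase, fell instead, from 933, 961, 993 and 777 to 488, 474, 559 and 533 (-0.81 ± 0.15, adjusted p = 0.000274). The salvage kinases thus moved in opposite directions, with no overlap of arrays for either. RRM2, the small subunit of ribonucleotide reductase, rose from 9956, 9673, 10170.4 and 9775 to 13650.4, 12729.8, 13699 and 13184 (0.43 ± 0.06, adjusted p = 2.84e-05). Its other probe set rose by 1.43, so the size of the RRM2 response depended on the probe set. RRM1, the large subunit, was not called (0.12 ± 0.07, adjusted p = 0.172). UNG, which removes uracil from DNA, rose from 1006, 1104, 1007 and 1095 to 1531, 1621, 1537 and 1479 (0.54 ± 0.07, adjusted p = 1.23e-05). DUT, which breaks down dUTP, rose by 0.18 ± 0.07 (adjusted p = 0.0395) with overlapping arrays, and its other probe sets gave 0.12 and -0.14, neither called. TYMS, thymidylate synthase, was not called (-0.10 ± 0.08, adjusted p = 0.303).

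Of the genes that protect forks and rebuild chromatin, SLBP had the smallest adjusted p of the whole set. SLBP, which binds the stem-loop of histone mRNAs and is needed for their processing, went from 1562, 1528, 1480.3 and 1443 to 7147, 6954, 6967 and 7129, 4.65-fold (2.22 ± 0.05, adjusted p = 2.77e-13). TIPIN rose from 829.6, 929.9, 909.5 and 864 to 1619, 1551, 1440.3 and 1581 (0.80 ± 0.06, adjusted p = 7.62e-08). Its binding partner TIMELESS, with which it forms the fork protection complex, fell from 927, 898, 891 and 972 to 561, 626, 593 and 581 (-0.63 ± 0.06, adjusted p = 5.00e-07). CHAF1A, the large subunit of the histone chaperone CAF-1, rose from 628, 575, 560.3 and 504 to 875, 749, 727 and 921 (0.51 ± 0.11, adjusted p = 0.000760), and all 3 of its probe sets rose. CHAF1B, its partner, was not called (-0.20 ± 0.14, adjusted p = 0.204). ASF1A rose by 0.26 ± 0.08 (adjusted p = 0.00718), but its other probe set gave 0.00, while ASF1B was not called (-0.12 ± 0.12).

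**Figure D4:**
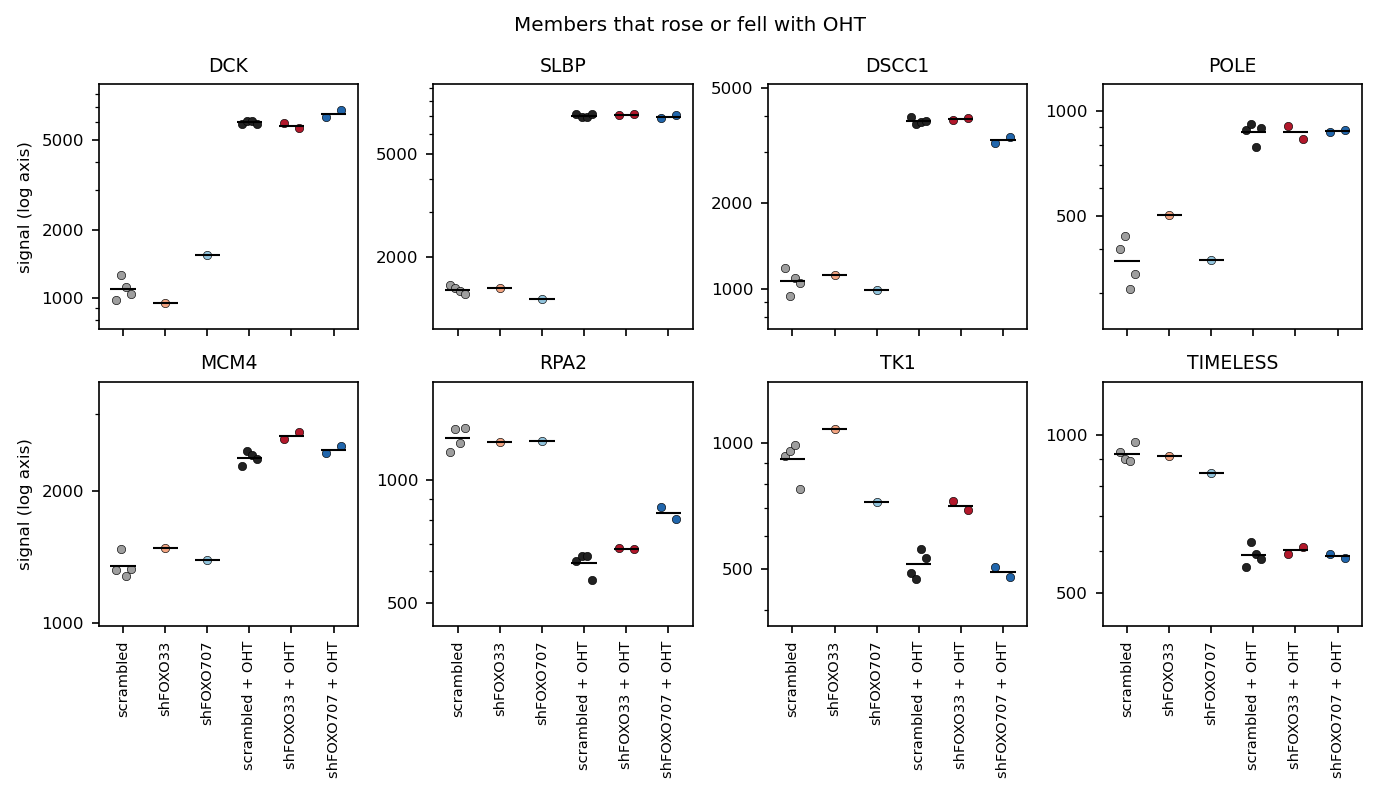
Signals on each array, on a log axis, for 5 members that rose with OHT (DCK, SLBP, DSCC1, POLE, MCM4) and 3 that fell (RPA2, TK1, TIMELESS), with a bar at each group's mean. In all 8 panels the scrambled arrays with OHT do not overlap those without, and for DCK, SLBP and TIMELESS the knockdown arrays with OHT lie near the scrambled arrays with OHT.

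Other genes of the pathway, 67 in all of which 52 passed the filter, also split: 16 rose with OHT in scrambled cells, 19 fell and 17 were not called, with a median log2 difference of -0.13, where 24.0% of all genes rose, 46.4% fell and the median was -0.23. The 12 tested genes of initiation and fork progression had 8 rises and 1 fall, with a median of 0.77. DONSON, a fork and helicase assembly factor, rose from a mean of 1535 to 6017 (1.96 ± 0.18, adjusted p = 3.82e-07). DBF4, the activator of the CDC7 kinase, rose from 1608 to 4892 (1.60 ± 0.10, adjusted p = 6.90e-09) while CDC7 itself fell. The 9 genes of synthesis and unlinking had 0 rises and 5 falls, with a median of -0.43. TOP1 fell from 2268 to 905 (-1.32 ± 0.08, adjusted p = 4.68e-09), and TOP2A, the other topoisomerase named here, fell too (-0.82 ± 0.05, adjusted p = 5.41e-09). RECQL, a helicase, fell with a difference of -1.05 ± 0.14 (adjusted p = 1.04e-05). Nucleotide metabolism had 6 rises and 12 falls among 23, and IMPDH1, which makes the precursor of guanine nucleotides, rose by 1.60 ± 0.12 (adjusted p = 3.57e-08). Chromatin genes behind the fork had 2 rises and 1 fall among 8.

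The response to OHT in knockdown cells, in which the hairpins were pooled into 4 arrays with and 2 without OHT, had the same outline. There 20 members rose, 16 fell and 23 were not called, where 20.6% of all genes rose and 37.3% fell. The median was 0.02 over members and -0.20 over all genes. SLBP rose by 2.27 ± 0.06, DCK by 2.32 ± 0.15, DSCC1 by 1.75 ± 0.10 and POLE by 0.98 ± 0.14. The falls of ORC4 (-1.32 ± 0.08), ORC5 (-0.92 ± 0.11), ORC1 (-1.07 ± 0.28) and ORC2 (-1.16 ± 0.11) were called as well. ORC6 (0.26 ± 0.10, adjusted p = 0.0424), PCNA (0.29 ± 0.10, adjusted p = 0.0209) and RRM1 (0.26 ± 0.09, adjusted p = 0.0255) were called higher here. Centring gave 28 rises and 8 falls, a share of rises of 77.8% in place of 55.6%, while 28.8% of all genes then rose and 22.5% fell. MCM6 then went from -0.22 to 0.007.

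The test of the difference between these responses, the interaction, called 0 of the 59 members in either direction in limma. Over all genes 0.0777% were called higher and 0.272% lower, and 8 members had an unadjusted p under 0.05. The median interaction was 0.12 over members and 0.03 over all genes. ORC5 had the largest value, 0.61 ± 0.14 (adjusted p = 0.0890), as its mean fall was smaller after knockdown. RRM2 followed at 0.41 ± 0.10 (adjusted p = 0.0941) and ORC4 at 0.38 ± 0.10 (adjusted p = 0.137). ASF1A had the lowest value, -0.43 ± 0.12 (adjusted p = 0.160): it went from 1240.4, 1239, 1261 and 1322 to 1571, 1489, 1523 and 1507 in scrambled cells and had 1275 and 1617 without and 1196 and 1208 and 1322 and 1406 with OHT in the hairpin cells. When the 6 groups of the sample titles were fitted separately, so that the spread between hairpins left the error, 7 members were called higher and 1 lower, where 4.96% and 4.73% of all genes were. Each hairpin has 1 array without OHT, which that fit assumes to vary like the other groups. The members were ORC4, ORC5, GMNN, MCM10, POLD3, RRM2 and UNG, and ASF1A.

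In cells with OHT, knockdown of FOXO1 and FOXO3 was accompanied by higher signals of 11 members and lower signals of 3, with 45 not called. Over all genes 14.7% were called higher and 8.01% lower, and the median difference was 0.11 over members against 0.04 over all genes. The number of members called higher was 6 on centring (11.7% of all genes higher and 9.46% lower), 6 to 17 when 1 array was left out, with 6 without scrambled replicate 1 or 2 with OHT and 17 without either hairpin array without OHT, and 25, with 8 lower, when the 6 title groups were fitted separately (26.4% and 20.7% of all genes). The ORC genes held 4 of the 11, and polymerase genes and RPA subunits 6. In limma clamp loading held 0 calls, with 0 members at an unadjusted p under 0.05, and nucleotide supply held 0 calls, with 1 member at an unadjusted p under 0.05. These counts are of pooled hairpins: taken singly, 2 of the 7 clamp loading genes were higher and 0 lower with shFOXO33, and 2 higher and 3 lower with shFOXO707, with RFC3 at 0.52 and -1.12. Nucleotide supply had 2 higher and 1 lower with shFOXO33, and 0 higher and 1 lower with shFOXO707. Over all genes 27.8% were higher and 21.5% lower with shFOXO33, and 24.6% and 17.2% with shFOXO707. This comparison and the response to OHT in scrambled cells share the 4 scrambled arrays with OHT, so a low value on those arrays enters both.

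ORC5 had 411 and 407 with shFOXO33 and 426 and 374 with shFOXO707, against 239, 232, 216 and 283 in scrambled cells with OHT (0.71 ± 0.09, adjusted p = 0.000135). ORC4 had 631 and 611 and 639 and 571 against 395, 454, 423 and 417 (0.52 ± 0.06, adjusted p = 0.000122). All 4 knockdown arrays lay above all 4 scrambled arrays for both genes, and all lay below the scrambled arrays without OHT. Of all 7720 genes tested, 1289 had the knockdown arrays with OHT entirely above the scrambled ones and 795 entirely below. Of the 59 members, 16 and 4 did. ORC3 had 476 and 491 and 420.4 and 442 against 385, 307, 411 and 339 (0.33 ± 0.09, adjusted p = 0.0160). It missed the threshold when the shFOXO33 arrays were left out of the fit. ORC2 had 172 and 203 and 207 and 188 against 163, 147, 159 and 151 (0.28 ± 0.09, adjusted p = 0.0439). The ORC2 call was lost on centring (adjusted p = 0.0653) and without any 1 of 10 arrays (0.0510 to 0.106). ORC1 (0.64 ± 0.23, adjusted p = 0.0625) and ORC6 (0.13 ± 0.08) were not called.

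GMNN had 3260.04 and 3458 and 3217 and 3186 in the knockdown cells against 2557, 2549.7, 2619 and 2409.6 (0.37 ± 0.05, adjusted p = 0.000268), the only call upward in licensing outside ORC. POLE3, a histone-fold subunit of polymerase epsilon, had 1821 and 1974 and 1684 and 1879.6 against 1237, 1398, 1321 and 1309 (0.48 ± 0.07, adjusted p = 0.000654). The arrays of neither gene overlapped between knockdown and scrambled cells. PRIM1 had 2462 and 2408 and 2186 and 1937 against 1859, 1826, 1853 and 1871 (0.27 ± 0.08, adjusted p = 0.0213). That call was lost without scrambled replicate 2 with OHT (adjusted p = 0.0525) or either shFOXO33 array with OHT (0.0592 and 0.0586). POLD2 had 1308 and 1418 and 1291 and 1288 against 985, 1064, 1244 and 1097 (0.27 ± 0.08, adjusted p = 0.0205). It was lost on centring (0.0511), without scrambled replicate 1 (0.0675) or 2 (0.0554) with OHT, and without shFOXO33 replicate 2 with OHT (0.0557). POLA1, RPA2 and RPA3 were higher by 0.26, 0.26 and 0.20, and centring removed these calls.

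The members lower after knockdown with OHT were ASF1B, GINS2 and ASF1A. ASF1B, a histone chaperone, had 455 and 453 and 641 and 575 against 690.1, 783, 817 and 721 (-0.50 ± 0.12, adjusted p = 0.00909). GINS2 had 2187 and 2283 and 2468 and 2485 against 2861, 2835, 2859 and 3025 (-0.30 ± 0.07, adjusted p = 0.00728). In both, every knockdown array lay below every scrambled array. ASF1A had a difference of -0.25 ± 0.08 (adjusted p = 0.0334). Among the other pathway genes tested, 8 of 52 were higher and 4 lower, near the 14.7% and 8.01% of all genes.

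Without OHT few members were called between knockdown and scrambled cells in the fit with pooled hairpins, which rests on 1 array of each hairpin. The spread between the hairpins entered this error, so members not called were not shown to be unchanged. POLE3 was called higher, and RRM2, UNG and ASF1B lower, with 55 not called. Over all genes 4.84% were called higher and 2.97% lower, the medians were 0.02 over members and over all genes, and 11 members had an unadjusted p under 0.05. POLE3 had 1969 with shFOXO33 and 1619 with shFOXO707, against 1205, 1253, 1138 and 1263 in scrambled cells (0.55 ± 0.09, adjusted p = 0.00262). It was thus called higher after knockdown with and without OHT. ASF1B, called lower in both, had 463 and 609 against 829, 817, 745 and 884 (-0.61 ± 0.15, adjusted p = 0.0218). That call was lost without the shFOXO33 array (-0.42, adjusted p = 0.174) or scrambled replicate 4 (0.0584). UNG had 892 and 731 against 1006, 1104, 1007 and 1095 (-0.37 ± 0.09, adjusted p = 0.0193). The UNG difference was -0.23 without the shFOXO707 array (adjusted p = 0.156), and its call was also lost without scrambled replicate 2 (0.0504) or 4 (0.0514). RRM2 had 7999.7 and 6951 against 9956, 9673, 10170.4 and 9775 (-0.41 ± 0.08, adjusted p = 0.00536). Its other probe set gave 0.18 in the opposite direction, which was not called, and without the shFOXO707 array the difference was -0.31 (adjusted p = 0.0538).

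The hairpins differed from each other in many members. With OHT, shFOXO707 minus shFOXO33 was called higher for 8 members and lower for 23, with 28 not called. Over all genes 22.1% were called higher and 21.4% lower, and the median difference was -0.13 over members and -0.01 over all genes. This test sets 2 arrays of each hairpin against each other. The targets differed too: FOXO3 differed from scrambled cells by -2.49 ± 0.08 with shFOXO33 and by -1.13 ± 0.08 with shFOXO707, a difference of 1.35 ± 0.10 (adjusted p = 1.98e-08), and FOXO1 differed by 0.50 ± 0.15 (adjusted p = 0.0115). The 3' probe set of ACTB, set against its 5' probe set as a gauge of RNA quality, gave a ratio of 1.95 and 2.04 on the shFOXO707 arrays with OHT and 1.49 to 1.74 on all others. The same ratio for GAPDH was 1.11 and 1.04 on the shFOXO707 arrays with OHT and 0.98 to 1.10 on all others. The part of the target difference or of the ACTB ratio in the hairpin difference was not tested.

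RFC3 differed most. It had 2363 and 2602 with shFOXO33 and 750.2 and 828 with shFOXO707, against 1592, 1871, 1711 and 1751 in scrambled cells with OHT (-1.63 ± 0.09 between the hairpins, adjusted p = 9.59e-10). Both hairpins thus lay outside the scrambled range, on opposite sides, and the same order was seen without OHT, at 1449 and 503 against 1225, 1080.2, 1049 and 1029.7. Its second probe set gave -1.63 as well. POLA2 was low only with shFOXO707, at 119 and 122 against 302 and 335 with shFOXO33 and 294, 279, 279 and 299.8 in scrambled cells (-1.29 ± 0.10, adjusted p = 3.74e-08). Without OHT it had 216 with shFOXO707 and 514 with shFOXO33. GINS3 was high with shFOXO33, at 401 and 441, against 195 and 215 with shFOXO707 and 181, 155, 227 and 189 in scrambled cells (-0.98 ± 0.15, adjusted p = 7.47e-05). MCM5 was high with shFOXO33 as well, at 1588 and 1668 against 903 and 926 with shFOXO707 and 858, 799.7, 854 and 908 in scrambled cells (-0.82 ± 0.07, adjusted p = 1.90e-07). RFC1 had 922 and 878 against 466 and 441 and 673, 653, 733 and 568 (-0.96 ± 0.10, adjusted p = 1.87e-06), so that it too was above scrambled cells with 1 hairpin and below with the other. The second probe sets of GINS3, MCM5 and RFC1 gave -0.78, -0.74 and -0.90. In the other direction, POLD3 differed by 0.57 ± 0.09 and RFC5 by 0.50 ± 0.13, for which further RFC5 probe sets gave 1.05 and 1.39.

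Against scrambled cells with OHT, shFOXO33 had 27 members higher and 5 lower, where 27.8% of all genes were higher and 21.5% lower. For shFOXO707 the counts were 17 and 11, where 24.6% of all genes were higher and 17.2% lower. Both comparisons use the same 4 scrambled arrays. Of MCM2 to MCM7, 4 were higher and 0 lower with shFOXO33, and 0 higher and 1 lower with shFOXO707. MCM7 was 0.25 with shFOXO33 and -0.23 with shFOXO707, and CDC6 0.33 and -0.30, each called with both hairpins and with a called difference between them (-0.48 ± 0.07 and -0.63 ± 0.07). Of ORC1 to ORC6, 5 were higher with shFOXO33 and 4 with shFOXO707, and 1, ORC6, had a called difference between hairpins (-0.23 ± 0.07, adjusted p = 0.0169). For ORC5 the hairpin effects were 0.72 and 0.69, with a difference of -0.03 ± 0.12, and for ORC4 0.54 and 0.50, with a difference of -0.04 ± 0.08. Those differences were smaller than their errors.

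**Figure D5:**
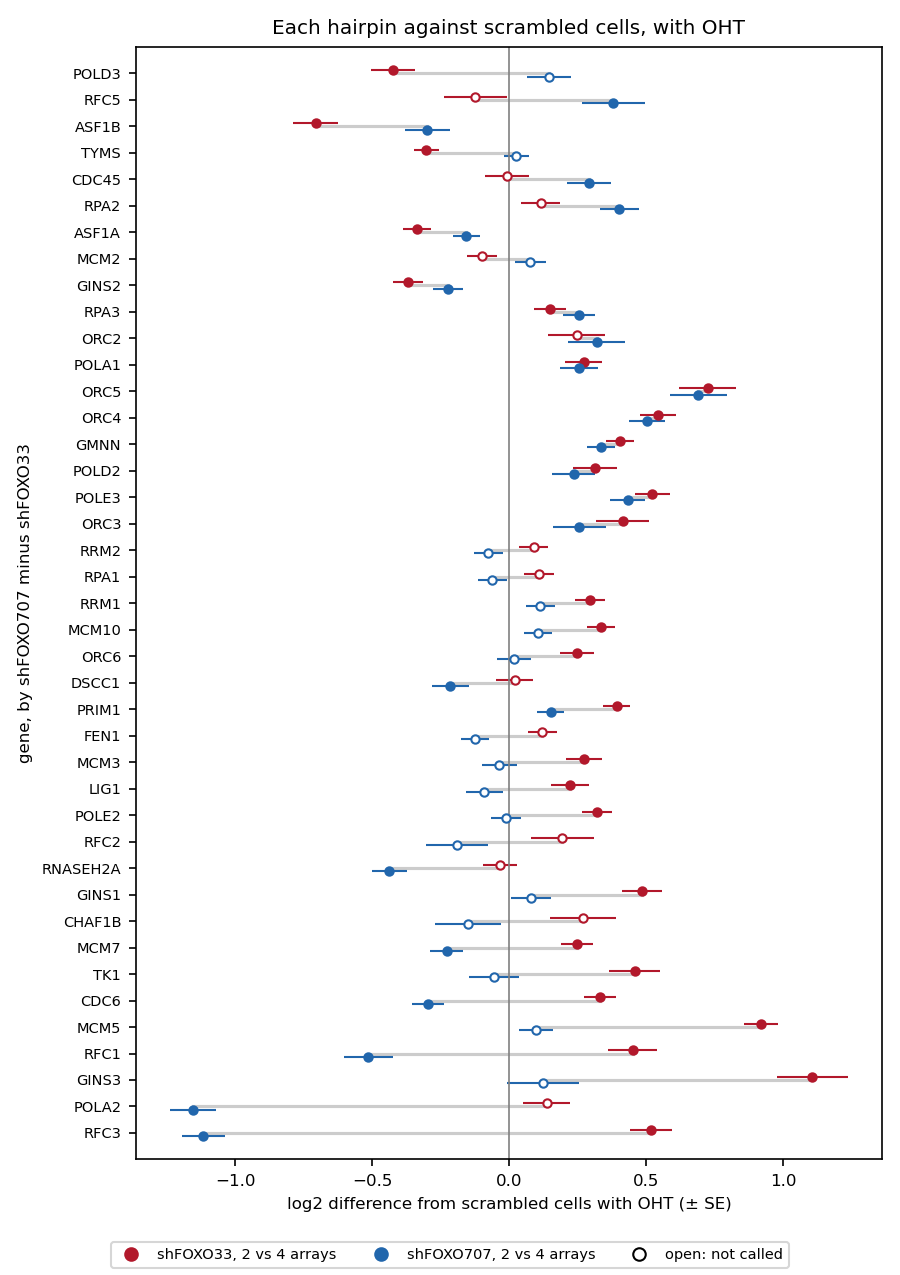
Log2 differences from scrambled cells with OHT, with bars of 1 SE, for shFOXO33 (red) and shFOXO707 (blue), 2 arrays each against 4, for the 41 members called in the pooled comparison or in the hairpin difference; filled points were called. RFC3, RFC1, CDC6 and MCM7 have filled points on opposite sides of 0, while the points of ORC4, ORC5, GMNN and POLE3 lie together above 0.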

How the data were processed

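The authors deposited 1 linear intensity per probe set and array, and per the submitters' processing notes MAS5 was used (version: not given in the sources used here). Each array had a 2% trimmed mean of 500 over its probe sets, so the 14 arrays were taken as scaled to it. Arrays have no sequencing depth, and their number limits the precision. Of 22277 probe sets, 62 were controls, 19064 named 1 gene, 1043 several and 2108 none, and the last 2 kinds were left out. For 19052 the symbol was updated by Entrez identifier. Intensities were transformed as log2(signal + 16), so folds are on that scale and are understated for dim genes. Probe sets under the 40th percentile of mean log2 signal (6.57, a signal of 79.1) were dropped, which left 7720 genes at 1 probe set each.

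Differences were tested two-sided with limma 3.58.1 (lmFit, eBayes with trend) in R 4.3.3 on all 14 arrays in 4 arms, with hairpins pooled, so that part of the spread between hairpins entered the error. Single hairpins and their difference came from a fit of the 6 title groups. The method was tested on simulated data. Other scalings, pseudocounts, filters, probe set rules, groupings and left-out arrays were tried as alternatives.

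The members, role groups and lists were chosen with earlier results of these data known. Named were, per role group, the 3 largest called changes each way with OHT in scrambled cells whose arrays did not overlap, up to 10 called members of each knockdown comparison, the 5 largest hairpin differences, and the 3 largest changes each way among other pathway genes; further subunits of their complexes were added. Same-numbered arrays did not deviate together (r from -0.06 to 0.0723 over 14 pairs, 0 of them over 0.1), so numbers were not taken as pairs. Of 91 pairs of arrays, 0 held identical values.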

Additional observations from a re-analysis of the deposited data

Results flagged for a closer look

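Of 118 groups of 4 arrays (59 genes, scrambled cells without and with OHT), 8 (6.78%) had an array far from the other 3, where chance gives about 1 in 20. In scrambled cells without OHT, replicate 3 was low for ORC6 (1065, the others 1142 to 1147), replicate 1 low for POLA2 (475, the others 526 to 528), replicate 4 high for GINS2 (1833, the others 1625 to 1643) and replicate 4 low for DUT (5024.5, the others 5917 to 6097). With OHT, replicate 4 was high for GINS1 (2173, the others 1831 to 1864), GINS2 (3025, the others 2835 to 2861) and POLA1 (505, the others 473 to 477), and replicate 1 was high for RPA1 (2942, the others 2769 to 2790).

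Under OHT the effects of the hairpins differed by test. The difference of shFOXO707 minus shFOXO33 was -1.63 for RFC3, -1.29 for POLA2, -0.98 for GINS3, -0.96 for RFC1 and -0.82 for MCM5. It was 0.57 for POLD3, 0.50 for RFC5 and 0.41 for ASF1B.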

How the results depend on the processing

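Of 43 pairs of a named member and a comparison, 33 kept direction and call under every alternative that was run; over all, 1136 of 1181 values did, 44 lost the call (29 of these by leaving out an array, in 7 pairs) and 1 reversed: RRM2 in knockdown without OHT was 0.18 without the probe sets marked as sharing sequence. Counts of members moved with how hairpins were grouped. OHT in scrambled cells gave 26 higher and 24 lower with 6 title groups. With 6 title groups, knockdown with OHT gave 25 higher and 8 lower, knockdown without OHT 7 and 11, and the interaction 7 and 1. With only shFOXO33 these were 27 and 5, 16 and 6, and 3 and 1. With only shFOXO707 there were 11 lower with OHT, 3 higher and 13 lower without OHT, and 4 higher and 1 lower in the interaction. Without OHT a hairpin taken singly is 1 array, also when an array without OHT is left out, and its spread is assumed to be that of the other groups. Centring gave 6 higher in knockdown with OHT and 8 lower with OHT in knockdown cells. Quantile normalization gave 3 higher in knockdown without OHT and 1 in the interaction, and a filter at the 60th percentile 2 higher in knockdown without OHT. With the replicate block, knockdown with OHT gave 7 higher and 1 lower on the 12 numbered arrays, against 17 and 3 on the same arrays unblocked, and it took the calls of ORC2 (adjusted p = 0.10), PRIM1 (0.0765) and ASF1B (0.0550). OHT in scrambled cells had 21 and 21 with the replicate block, and the hairpin difference 9 and 24. Samples share only a number, and the cause of these shifts was not tested. Counts in this section without a share of all genes beside them are not read as particular to the members.

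Leaving out each array in turn gave 6 to 17 higher and 2 to 3 lower in knockdown with OHT: 17 without either hairpin array without OHT, 6 without scrambled replicate 1 or 2 with OHT and 7 without shFOXO33 replicate 2 with OHT. It gave 1 to 3 higher and 1 to 4 lower in knockdown without OHT (3 higher without the shFOXO33 array without OHT, 2 without the shFOXO707 array, scrambled replicate 1 without OHT or scrambled replicate 2 with OHT, and 1 lower without scrambled replicate 4). The interaction had 0 to 1 each way, with 1 higher without the shFOXO33 array without OHT or shFOXO707 replicate 2 with OHT, and 1 lower without that shFOXO33 array. The hairpin difference had 5 to 9 higher, 5 without shFOXO707 replicate 1, and 17 to 25 lower. OHT gave 18 to 22 higher and 20 to 22 lower in scrambled cells, and 14 to 25 and 13 to 20 in knockdown cells. ORC1 lay near the filter level with OHT, so its difference is limited by dim signal.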
